A study of Mus musculus with 6 samples.

Results

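Bckdhb, Ppm1k and Oxct1 are 3 nuclear genes for mitochondrial enzymes that dispose of branched-chain amino acids and ketone bodies. They were chosen by name, with identifiers matched to symbols in the GRCm38 annotation, and all 3 were among the 3162 genes held in the files. Epididymal white adipose tissue, the visceral fat pad beside the epididymis, was sequenced from male wild-type C57BL/6J mice aged 16 weeks. The fed group was 3 mice with normal access to food, and the fasted group was 3 mice starved for 24 h. Values are FPKM, fragment counts scaled to transcript length and library total. The scaling to length lets genes be compared within a library. Comparisons between libraries depend on how the libraries are scaled. Median-ratio scaling, tried as an alternative, moved the median change of all tested genes and ended some calls, as given below.

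Leucine, isoleucine and valine are first transaminated and then decarboxylated by the branched-chain ketoacid dehydrogenase complex, which commits their carbon to oxidation. BCKDHB is the beta subunit of the decarboxylase (E1) of that complex. A dedicated kinase, BCKDK, switches E1 off by phosphorylation, and the phosphatase PPM1K (also called PP2Cm) switches it on again. OXCT1 (SCOT) passes CoA from succinyl-CoA to acetoacetate, the step that lets a tissue outside the liver burn ketone bodies. Adipose tissue is known as a site of branched-chain amino acid oxidation, and adipocytes also use these carbons for lipid synthesis.

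Bckdhb (ENSMUSG00000032263) spans bases 83925145 to 84124240 of chromosome 9 (GRCm38, plus strand) and has 6 annotated transcripts, 3 of them protein-coding. Ppm1k (ENSMUSG00000037826) spans 57506502 to 57535468 of chromosome 6 (minus strand) and has 3 transcripts, 2 of them protein-coding. Oxct1 (ENSMUSG00000022186) spans 4026383 to 4155344 of chromosome 15 (plus strand) and has 5 transcripts, 2 of them protein-coding. FPKM is summed over a gene, so the transcripts of a gene were not separated.

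The sequence before the start of each gene is shown as a description. Its part in the changes of Bckdhb, Ppm1k and Oxct1 was not tested. All 3 genes matched the RefSeq promoter table (GRCm38.p6). Each line runs 5′ to 3′ on the gene's strand and stops before the first annotated transcript base. The stretches are chr9:83924887-83925110 (plus strand), chr6:57535553-57535737 (minus strand) and chr15:4026178-4026382 (plus strand). Capitals mark matches to any of 9 motifs on either strand.
Bckdhb: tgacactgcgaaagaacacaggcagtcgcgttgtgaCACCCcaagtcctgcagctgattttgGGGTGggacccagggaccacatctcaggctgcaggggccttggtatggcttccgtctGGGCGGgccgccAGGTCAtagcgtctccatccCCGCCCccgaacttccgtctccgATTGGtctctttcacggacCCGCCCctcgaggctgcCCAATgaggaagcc
Ppm1k: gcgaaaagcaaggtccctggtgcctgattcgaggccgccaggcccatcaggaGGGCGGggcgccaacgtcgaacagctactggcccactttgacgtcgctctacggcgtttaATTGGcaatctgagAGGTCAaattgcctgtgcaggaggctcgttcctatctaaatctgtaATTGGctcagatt
Oxct1: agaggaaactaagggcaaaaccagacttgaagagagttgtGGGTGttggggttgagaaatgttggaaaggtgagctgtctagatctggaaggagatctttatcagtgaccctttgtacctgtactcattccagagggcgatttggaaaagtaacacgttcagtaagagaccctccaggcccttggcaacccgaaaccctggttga

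The motifs searched were CACGTG (E-box), GTAAACA (forkhead), TGACGTCA (full cAMP response element), TCAAGGTCA (ERR element), AGGTCA (nuclear receptor motif, also contained in the ERR element), CCAAT (NF-Y box), GGGCGG (GC box), CACCC (KLF box) and TGATGCAA (ATF4 and C/EBP composite). The search covered both strands of windows from 250 bases before to 50 after the RefSeq start. The Bckdhb window held 3 GC boxes, 2 NF-Y boxes, 2 KLF boxes and 1 nuclear receptor motif. The Ppm1k window held 2 GC boxes, 2 NF-Y boxes and 1 nuclear receptor motif; the GC box nearer the start lies beyond the stretch shown. The nuclear receptor motif began 119 bases before the start of Bckdhb and 124 before that of Ppm1k. Of these 9 motifs the Oxct1 window held the KLF box alone, with 2 matches. Among 32851 windows of this length, 16.3% held the nuclear receptor motif, 37.4% the NF-Y box, 35.7% the GC box and 57.5% the KLF box. All 3 of nuclear receptor motif, NF-Y box and GC box were held by 1.43% of windows, and none of the 3 by 32%. These combinations were picked after the matches were seen. A second RefSeq start of Bckdhb, at 83948781 inside the gene, had 1 NF-Y box and no other match. A match describes the letters, not a bound site.

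As a check of the whole table, summed FPKM over the genes held was 190382 to 209201 in fed and 180058 to 188061 in fasted libraries. Every fasted library was thus below every fed library in this sum, and sequencing depth is unknown. The genes held are a selected set: fed and fasted values did not overlap in 93.4% of the 2999 genes tested. Of all tested genes, 90.5% passed limma's test between the groups (Benjamini-Hochberg, adjusted p under 0.05), 41.1% as higher and 49.4% as lower in fasted tissue. All fasted values were above all fed values in 40.8% of tested genes and below them in 52.6%. Among the 3 genes described here Bckdhb and Ppm1k were called higher and Oxct1 lower, each without overlap. A call or a gap thus sets a gene little apart from the others held. Of cell type markers, the 3 of 10 adipocyte markers held (Plin1, Aoc3 and Mrap) summed to 1726 to 1954 FPKM in fed and 585 to 910.4 in fasted libraries. The 4 of 8 endothelial markers held summed to 176 to 217 and 283 to 414 FPKM. The 4 of 9 fibroblast and progenitor markers held summed to 661 to 962 and 1218 to 1832 FPKM. Dcn and Ly6a were higher, Col1a1 and Col1a2 lower, Col1a1 at the edge of the threshold (limma adjusted p = 0.0499). Of the 3 of 8 muscle markers held, Des and Myh11 were higher and Myl1 fell from a mean of 60.1 to 18.4 FPKM. The groups overlapped for Myh11, at 17.5 FPKM in fed replicate 1 and 15.2 in fasted replicate 3. Single macrophage and lymphocyte markers were held. Itgam went from 4.55 to 8.38 FPKM in fed to 2.12 to 3.86 in fasted libraries, and Cd3e from 0.15 to 0.23 to between 0.89 and 0.98. Of the 8 mesothelial markers none (0) was analysed here. The epididymal marker Adam7 was at most 0.03 FPKM except in fed replicate 2, which had 2.05.

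Bckdhb was high in fed adipose tissue and rose further on fasting. It measured 119.8, 113 and 112 FPKM in the 3 fed libraries and 231, 205 and 168 FPKM in the 3 fasted libraries. The fed mice lay within a few FPKM of each other, the fasted mice were spread more widely, and the groups did not overlap. Means were 115 ± 4.39 and 201 ± 31.9 FPKM (SD, n = 3 per group), a ratio of 1.75. The log2 change on the FPKM + 1 scale was 0.79 ± 0.14 (SE; limma adjusted p = 0.00347). In mean level Bckdhb stood at percentile 89.4 of the genes held when fed and 94.5 when fasted.

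Ppm1k was a low-abundance transcript that rose as well. It measured 1.92, 2.13 and 3.72 FPKM in fed libraries and 6.48, 5.77 and 7.24 FPKM in fasted libraries. Fed replicate 3 stood above the other two fed mice, but below every fasted mouse. Means were 2.59 ± 0.984 and 6.50 ± 0.735 FPKM, a ratio of 2.51. Its log2 change was 1.09 ± 0.21 (limma adjusted p = 0.0043), and on this scale the added 1 FPKM makes the change of such a low gene look smaller. With a pseudocount of 0.1 it was 1.35. The gene moved from percentile 15.2 to 29.6 of the levels held. Its longest transcript matched transcripts of 43 other genes at 90.2% to 96.0% identity. The longest match to each was 200 to 236 bases, at most 4.2% of the transcript. The share covered by all matches together was not computed, and the part of such reads in the Ppm1k value was not tested.

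Oxct1, in contrast, fell on fasting from a level close to that of Bckdhb. It measured 82.1, 101 and 103 FPKM in fed libraries and 37.0, 44.0 and 61.0 FPKM in fasted libraries. Every fasted mouse was below every fed mouse, with fasted replicate 3 nearest to the fed values. Means were 95.4 ± 11.6 and 47.3 ± 12.3 FPKM, a fed to fasted ratio of 2.02, and the log2 change was -1.02 ± 0.19 (limma adjusted p = 0.00425). Of its exon bases 12.6% lie opposite exons of BC037032, annotated on the other strand as a processed transcript. FPKM carries no strand here, so reads of the pair cannot be told apart.

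**Figure D1:**
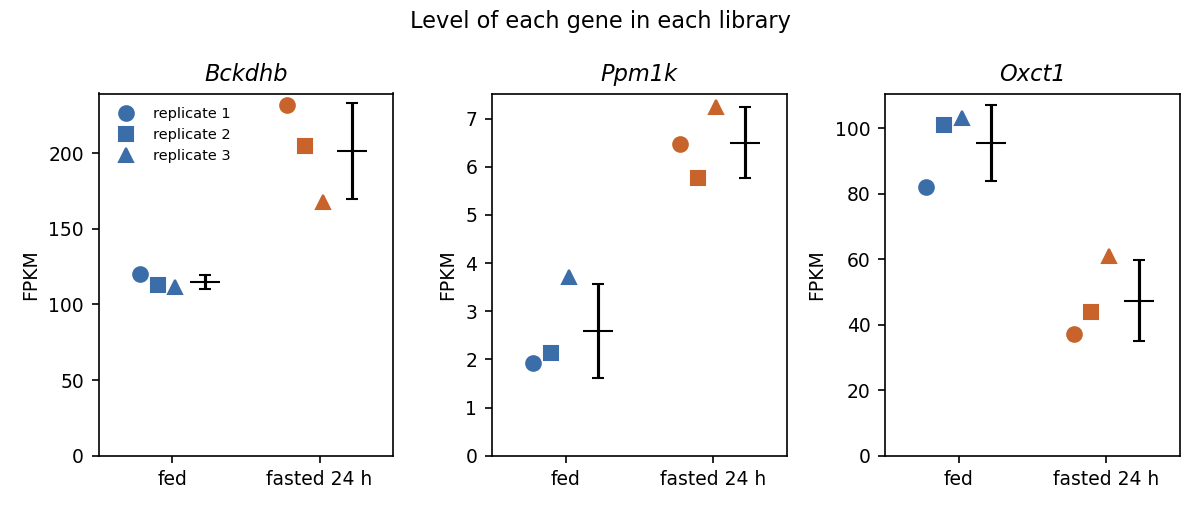
FPKM of Bckdhb, Ppm1k and Oxct1 (vertical axes, linear from 0, a different range for each gene) in the 3 fed and 3 fasted libraries; each symbol is 1 mouse, and the bar is the group mean with its SD. Fasted points lie above all fed points for Bckdhb and Ppm1k and below them for Oxct1.

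For all 3 genes the calls have the same limits. The exact two-sided permutation test over the 6 mice gave p = 0.1 for each, the smallest that 3 against 3 allows. When genes not held were counted as tested with the largest possible p, limma's adjusted p over all annotated genes was 0.0642 for Bckdhb, 0.0794 for Ppm1k and 0.0786 for Oxct1, which ended the calls; over protein-coding genes alone it was 0.0254, 0.0314 and 0.0311.

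In fed tissue the order of levels was Bckdhb (112 to 119.8 FPKM), Oxct1 (82.1 to 103) and Ppm1k (1.92 to 3.72), with no overlap between neighbours. In fasted tissue the order was the same, and the gap between Bckdhb (168 to 231 FPKM) and Oxct1 (37.0 to 61.0) had widened. The ratio of 2 genes within a library cancels any scaling of that library, so these ratios were taken from the FPKM directly. Bckdhb to Oxct1 was 1.46, 1.12 and 1.08 in fed libraries and 6.25, 4.65 and 2.75 in fasted libraries. Bckdhb exceeded Oxct1 in every fed mouse, and the excess was wider in each fasted mouse, least so in fasted replicate 3. The group medians of the log2 ratio were 0.16 and 2.22. Ppm1k to Oxct1 was 0.0234, 0.0211 and 0.0361 in fed and 0.175, 0.131 and 0.119 in fasted libraries, and these did not overlap either. Ppm1k to Bckdhb compares the transcripts of the activating phosphatase and of the E1 beta subunit, not the amounts of protein. This ratio was 0.0160, 0.0188 and 0.0333 in fed and 0.0280, 0.0282 and 0.0431 in fasted libraries. Here the groups overlapped, because fed replicate 3 exceeded fasted replicates 1 and 2. The median log2 ratio of Ppm1k to Bckdhb was higher by 0.58 in fasted tissue and by 0.26 with a pseudocount of 1. It was 0.17 without fed replicate 1, 0.29 without fed replicate 2, 0.89 without fasted replicate 1 and 0.88 without fasted replicate 2, and the difference was not tested.

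Fasted replicate 3 had the lowest Bckdhb and the highest Oxct1 of the fasted mice. It also had the highest Ppm1k, at 7.24 FPKM against 6.48 and 5.77, and so lay furthest from the fed mice in that gene. In that library Plin1, the lipid droplet coat gene used as an adipocyte marker, was at 479 FPKM, against 286 and 260 in fasted replicates 1 and 2 and 694 to 798 in fed libraries. The other adipocyte markers held differed. Aoc3 was at 194, 157 and 288 FPKM in fasted replicates 1, 2 and 3, highest in replicate 3. Mrap was at 133, 168 and 143 FPKM in the same order, highest in replicate 2. The endothelial marker Pecam1 was at 129 FPKM in fasted replicate 3, against 174 and 189 in the other fasted and 75.7 to 89.3 in fed libraries. In bulk tissue fewer cells of a type and less RNA per cell cannot be told apart. The part of cell composition in the changes of Bckdhb, Ppm1k and Oxct1 was not tested.

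Few of the listed branched-chain amino acid genes were held. The 2 of 7 held for transport were higher. Of 10 genes listed from propionyl-CoA through the succinyl-CoA step of the TCA cycle, 4 were held, and 3 were lower. Of 39 genes listed from uptake through that step, 11 were held and 10 tested. Of the genes tested 5 were higher, 4 lower and 1 did not pass. The median log2 change was 0.28, beside -0.34 over all genes tested. The counts stand against the background shares of 41.1% higher and 49.4% lower, so they set the listed genes little apart. Over all annotated genes 1 of the rises and 0 of the falls passed by limma; 4 falls had an unadjusted p under 0.05. Under median-ratio scaling the falls that passed numbered 0 (2 at an unadjusted p under 0.05). That scaling moved the median of all tested genes to -0.15, and quantile normalization moved it to -0.21. BCKDHA, DBT, BCKDK and BCAT2, the remaining subunits, kinase and mitochondrial transaminase of the shared steps, were not analysed here.

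Of 7 genes listed for transport into the cell and the mitochondrion, 2 were held, and both were higher, against a background of 41.1%. Both act at the cell membrane. Slc3a2, the heavy chain that carries the large neutral amino acid transporters to the surface, measured 122, 137 and 125 FPKM in fed and 208, 334 and 172 in fasted libraries. Its log2 change was 0.83 ± 0.23 (limma adjusted p = 0.0124). Slc43a1, a facilitative transporter of branched-chain and other large neutral amino acids, measured 28.8, 26.9 and 65.8 FPKM in fed and 84.7, 119.8 and 78.3 in fasted libraries (1.29 ± 0.34). Among fed mice replicate 3 had the most Slc43a1 and also the most Ppm1k.

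Within the shared steps Bckdhb and Ppm1k were higher and Dld was lower. Dld encodes the dihydrolipoamide dehydrogenase (E3) that this complex shares with pyruvate and oxoglutarate dehydrogenase. It measured 87.7, 106 and 89.8 FPKM in fed and 68.6, 71.8 and 68.6 in fasted libraries, a log2 change of -0.43 ± 0.12 (limma adjusted p = 0.0125). With median-ratio scaling the change of Dld was -0.22 (adjusted p = 0.0865) and with quantile normalization -0.18 (adjusted p = 0.127). Bckdhb to Dld within a library, a pair picked after the values were seen, was 1.37, 1.07 and 1.24 in fed and 3.37, 2.85 and 2.45 in fasted libraries. Bckdhb was thus above Dld in every fed mouse and further above it in every fasted mouse. Bcat1, the cytosolic transaminase, was near silent, at 0.47 to 0.66 FPKM in fed and 0.13 to 0.43 in fasted libraries, and was below the filter for testing.

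After the dehydrogenase 1 gene was held, and its rise also passed over all annotated genes. Hsd17b10, the dehydrogenase of the isoleucine branch that is also a subunit of mitochondrial RNase P, measured 169, 117 and 153 FPKM in fed and 417, 605 and 395 in fasted libraries. Its ratio of means was 3.23 and its log2 change 1.67 ± 0.21 (limma adjusted p = 0.00121, and 0.0224 over all annotated genes).

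Between propionyl-CoA and succinyl-CoA, the end of the valine and isoleucine branches, 3 of 4 genes held were lower and 1 did not pass. The background share of lower genes was 49.4%. The median log2 change of the 4 was -0.49, beside -0.34 over all genes tested. Pcca, the biotin-carrying subunit of propionyl-CoA carboxylase, measured 44.9, 52.3 and 57.2 FPKM in fed and 25.0, 27.9 and 41.8 in fasted libraries (-0.72 ± 0.20). Mcee, the epimerase that follows, changed by -0.43 ± 0.15, and Mmab, which makes the cobalamin cofactor of the mutase, by -0.55 ± 0.17. The cobalamin-handling gene Mmadhc was at 41.2 ± 6.50 FPKM in fed and 34.5 ± 4.31 in fasted tissue (limma adjusted p = 0.156). After median-ratio scaling limma called 0 of these 3 genes (2 at an unadjusted p under 0.05), and without fasted replicate 2 it called Pcca alone. The Mcee call was also lost with quantile normalization (limma adjusted p = 0.106) and without fed replicate 2 (0.065), fed replicate 3 (0.0673) or fasted replicate 3 (0.0696).

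Oxct1 was accompanied by lower monocarboxylate transporters. Of 10 genes listed for ketone body synthesis, use and transport, 3 were held, and all 3 (Oxct1, Slc16a1 and Slc16a7) were lower, with a median log2 change of -0.85 and beside a background of 49.4%. Slc16a1 (MCT1), which carries ketone bodies and lactate across the plasma membrane, measured 17.6, 25.7 and 29.8 FPKM in fed and 15.2, 10.9 and 12.5 in fasted libraries (-0.85 ± 0.21, limma adjusted p = 0.00882). Slc16a7 (MCT2), a relative with higher affinity, measured 15.5, 11.6 and 10.1 FPKM in fed and 7.51, 8.65 and 8.75 in fasted libraries (-0.51 ± 0.17, limma adjusted p = 0.0235). Median-ratio scaling ended the Slc16a7 call (adjusted p = 0.14), as did leaving out fed replicate 1, fasted replicate 1 or fasted replicate 2; over the 6 libraries left out in turn, limma's adjusted p ran from 0.0219 to 0.0719. Over all annotated genes limma called 0 of the 3, although all 3 had an unadjusted p under 0.05. BDH1, which interconverts the ketone bodies, and the thiolase ACAT1 were not analysed here.

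**Figure D2:**
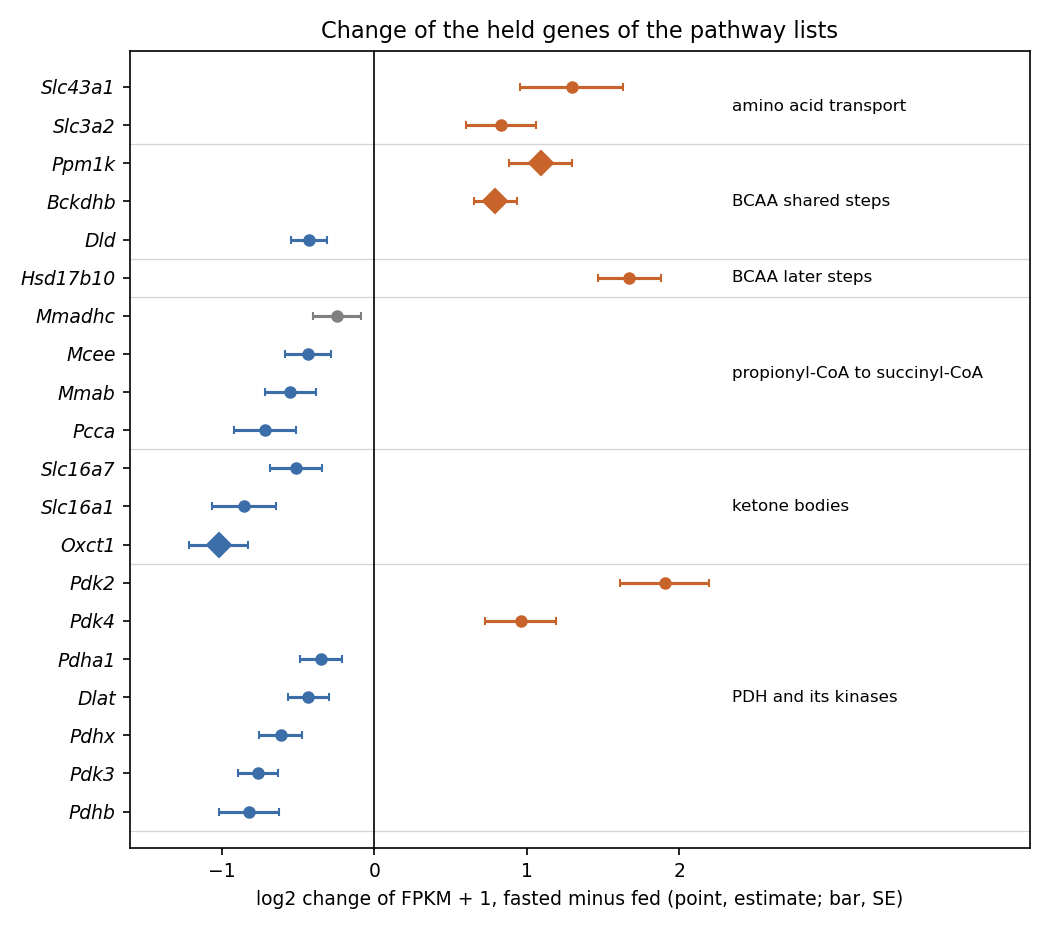
Log2 change of FPKM + 1, fasted minus fed (horizontal axis), with its SE for each tested gene of 6 lists; diamonds are Bckdhb, Ppm1k and Oxct1, orange is higher, blue is lower and grey did not pass. Dld belongs to 2 lists and is drawn once; uptake, E1 beta, its phosphatase and the later step lie to the right, and the propionyl-CoA and ketone body genes lie to the left.

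The pyruvate dehydrogenase complex has the same architecture and the same form of control as the branched-chain complex, so its genes were set beside Bckdhb. Of 15 genes listed for the pyruvate and oxoglutarate complexes 8 were held, with 2 higher and 6 lower, against backgrounds of 41.1% and 49.4%. Their median log2 change of -0.43 was near the -0.34 of all genes tested. Pdhb, the counterpart of Bckdhb as E1 beta subunit, measured 118, 199 and 132 FPKM in fed and 86.2, 81.7 and 78.6 in fasted libraries. Its log2 change was -0.82 ± 0.19 (limma adjusted p = 0.00774). Bckdhb to Pdhb within a library, a pair also picked after the values were seen, was 1.01, 0.568 and 0.848 in fed and 2.68, 2.51 and 2.14 in fasted libraries. The branched-chain E1 beta transcript was thus level with or below that of pyruvate dehydrogenase in the fed mice and above it in each fasted mouse.

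The other subunits held, Pdha1 (-0.35 ± 0.14), Dlat (-0.43 ± 0.13) and Pdhx (-0.61 ± 0.14), were lower as well. The falls of this list numbered 3 with median-ratio scaling and 3 with quantile normalization. The call for Dlat was lost with median-ratio scaling (-0.23, limma adjusted p = 0.104), with quantile normalization (-0.29, 0.0585) and without fasted replicate 2 (0.0613). Both scalings also ended the call for Pdha1. It was lost as well without any 1 library other than fed replicate 1 (limma adjusted p of 0.0767 to 0.113). Without fed replicate 1 the call was kept (limma adjusted p = 0.0151). Pdha1 also has a processed pseudogene with 90.1% identity over 1118 bases, and part of its exons lie opposite those of Map3k15. Among the kinases that switch off pyruvate dehydrogenase, Pdk2 was 90.3, 47.6 and 112 FPKM in fed and 259, 331 and 305 in fasted libraries (1.91 ± 0.29), and Pdk4 rose by 0.96 ± 0.23. Pdk3 was lower (-0.76 ± 0.13). The transcripts of the activating phosphatase of the branched-chain complex and of 2 inactivating kinases of the pyruvate complex were higher in fasted tissue. The kinase BCKDK was not analysed here, and the activity of either complex was not tested.

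**Figure D3:**
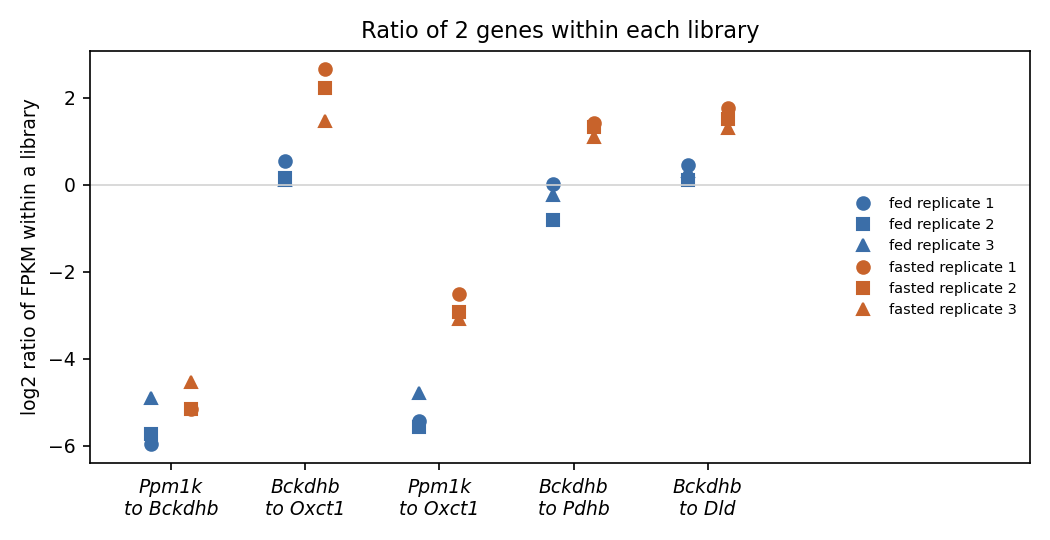
Log2 ratio of the FPKM of 2 genes within each library (vertical axis) for 5 pairs; each symbol is 1 library, fed in blue and fasted in orange. Fed and fasted libraries separate for every pair shown except Ppm1k to Bckdhb.

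Ppm1k belongs to the PP2C family of metal-dependent phosphatases, and its relatives held were higher too. Of 16 listed, 4 were held and all 4 were higher, against a background of 41.1%. Ppm1b measured 31.6, 32.7 and 32.5 FPKM in fed and 74.3, 68.5 and 50.3 in fasted libraries (0.96 ± 0.16). Ppm1d, the phosphatase induced by p53, changed by 0.81 ± 0.18, Ppm1l by 0.59 ± 0.15 and Ilkap by 0.53 ± 0.15. Ppm1k (1.09 ± 0.21) lay at the top of these 5 changes, though within the error of Ppm1b. Ppm1l was expressed at a similarly low level, at 2.03 ± 0.204 FPKM in fed and 3.58 ± 0.35 in fasted tissue. A processed pseudogene of Ppm1b has 99.2% identity over 1173 bases, so that value is uncertain. Exons of Ilkap share 357 bases with exons of Erfe on the other strand. Over all annotated genes 0 of the 4 relatives passed by limma, although all 4 had an unadjusted p under 0.05.

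Transcription regulators linked to these pathways went both ways, with Ppara, Ppargc1a and Ppargc1b higher and Mlxipl and Srebf1 lower. With Acly, an enzyme on the same list of 10, the 6 genes held made 3 higher and 3 lower, against backgrounds of 41.1% and 49.4%. Mlxipl, which encodes the carbohydrate-sensing factor ChREBP, a known activator of Bckdk and repressor of Ppm1k in liver, measured 83.9, 81.9 and 72.6 FPKM in fed and 45.1, 42.7 and 42.6 in fasted libraries (-0.85 ± 0.11, limma adjusted p = 0.00141). Acly, the citrate lyase that BCKDK and PPM1K also act on, was at 48.7, 242 and 87.7 FPKM in fed and 22.0, 26.7 and 24.2 in fasted libraries (-2.02 ± 0.50). Fed replicate 2 alone was above 200 FPKM. Srebf1 changed by -1.54 ± 0.20. Ppargc1a, the coactivator of mitochondrial gene expression, was low but higher in fasted tissue, at 1.17, 0.62 and 0.51 FPKM in fed and 3.21, 2.24 and 1.55 in fasted libraries (0.90 ± 0.24). Ppargc1b (0.69 ± 0.20) and Ppara (0.70 ± 0.15), the fatty acid sensing receptor, were higher at similarly low levels. At these levels the pseudocount sets the size of a change. With 0.1 in place of 1 it was 1.51 for Ppargc1a, 1.34 for Ppargc1b and 1.03 for Ppara, and the 3 calls held. Ppargc1a and Ppargc1b averaged 0.77 and 0.61 FPKM when fed, so both reached the filter of 1 FPKM only through their fasted values. With so low a fed mean the filter fixes the direction in advance, and nothing is drawn from these calls.

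Genes with the most similar profiles were found by the root mean square difference of log2(FPKM + 1), each gene centred on its mean, over the 6 libraries. For Bckdhb they were Cep57 (0.022), Trabd (0.049), Rpl37 (0.05) and Kctd6 (0.055). Cep57, which encodes a centrosomal protein, was at 5.99, 5.43 and 5.49 FPKM in fed and 12.4, 10.7 and 9 in fasted libraries, and it repeated the order of Bckdhb among the fasted mice at a far lower level. For Ppm1k they were Chst11 (0.079), the carboxylesterase gene Ces1d (0.095), the histone demethylase gene Kdm7a (0.128) and the enoyl-CoA isomerase gene Eci3 (0.148). Ces1d shared the fed replicate 3 value above the other fed libraries, at 503, 565 and 833 FPKM, and was at 1266, 1239 and 1707 FPKM in fasted libraries. For Oxct1 they were the lysosomal protease gene Ctsb (0.054), Naaa (0.098), Plod3 (0.109) and Gcsh (0.112), the H protein of glycine cleavage. Ctsb was at 1174, 1499.8 and 1437 FPKM in fed and 558, 675 and 837 in fasted libraries, and like Oxct1 it was highest among the fasted mice in replicate 3. Rpl37, Kctd6, Eci3, Naaa and Gcsh have stretches nearly identical to other transcripts and are uncertain. Exons of Ctsb and Plod3 overlap those of genes on the other strand. These distances describe 6 libraries of 2 groups, and a gene with a change of the same size is near by construction.

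The changes of Bckdhb, Ppm1k and Oxct1 kept their direction under each setting tried. Bckdhb ranged from 0.69 to 1.05 on the log2 scale, Ppm1k from 0.96 to 1.38 and Oxct1 from -1.21 to -0.79. The lowest Bckdhb value came without fasted replicate 1, and the largest fall of Oxct1 came without fasted replicate 3, the fasted mouse nearest the fed group in both genes.

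**Figure D4:**
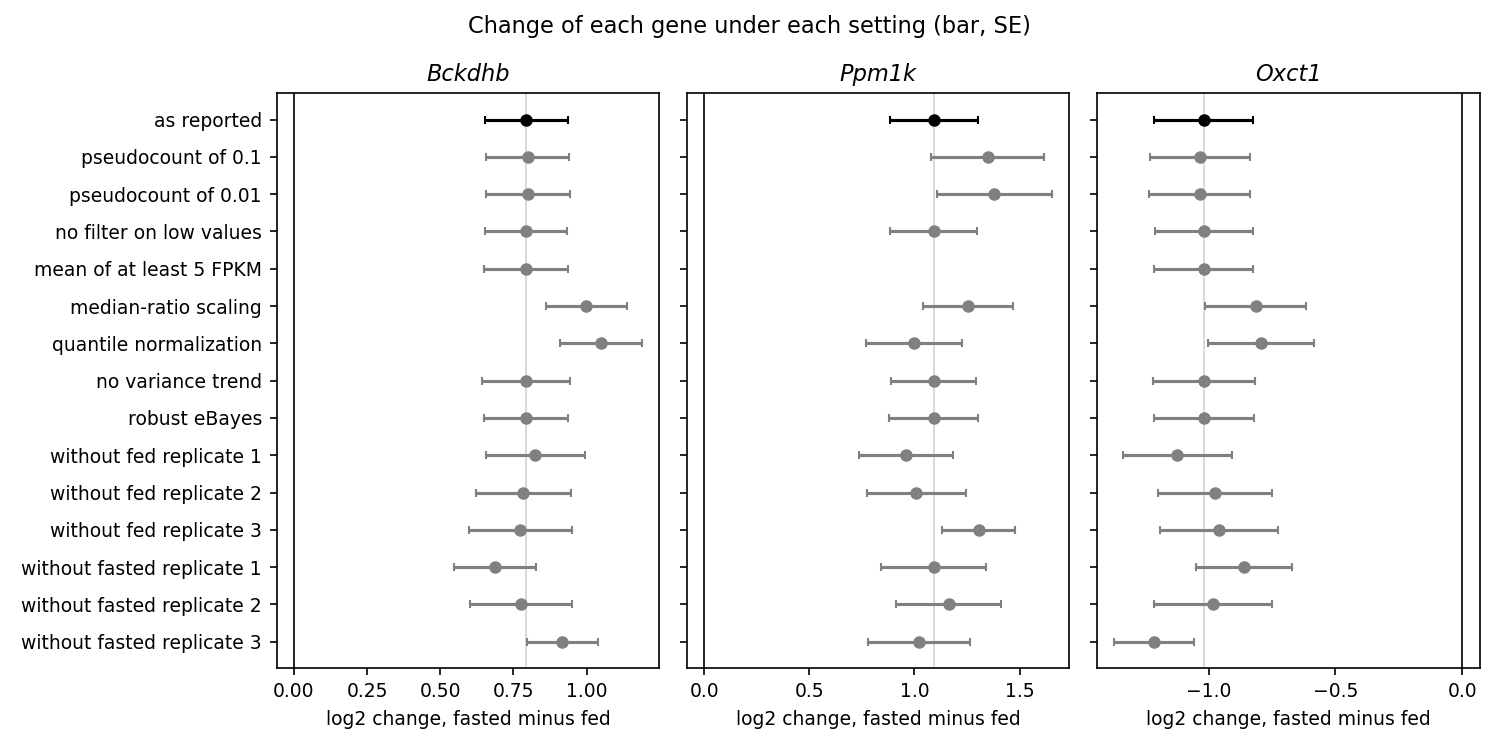
Log2 change, fasted minus fed (horizontal axes, a different range for each gene), with its SE for Bckdhb, Ppm1k and Oxct1 as reported and under other pseudocounts, filters, scalings, variance models and with 1 library left out. No point crosses 0; Ppm1k has no value with a mean of at least 5 FPKM because it lies below that filter.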

How the data were processed

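RNA from 70 mg pieces of epididymal fat was sequenced with Illumina libraries, per the labels' protocols. Each deposited file gives FPKM per gene, per the file headers; the submitters' processing notes name RSEM and the builds mm10 and GRCm38.p6. Not given in the sources used here: RSEM's version, the aligner and how the 3162 genes were selected. Symbols were found in GENCODE M21 for 3158 identifiers.

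log2(FPKM + 1) of the 2999 genes averaging 1 FPKM or more was fitted with limma 3.58.1 (R 4.3.3, lmFit, eBayes with trend), two-sided, with Benjamini-Hochberg adjustment over all of them and a threshold of 0.05; the fit was tested on simulated data. Groups follow the treatment label; replicates are numbered by accession, and no numbers are paired. Lists are described by counts and medians, without a set test; some listed genes are not reported here and were left out of the lists' counts. Named genes were the 3 members, the held genes of the pathway lists (up to 6, by p, for other phosphatases and other amino acids) and 4 nearest profiles each. Members and lists were chosen with earlier results of these data known. Near-identical transcripts were searched with blastn 2.17.0 (at least 90% identity over 200 bases). Alternatives changed the pseudocount, filter, scaling, variance model, adjustment and libraries.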

Additional observations from a re-analysis of the deposited data

How the results depend on the processing

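Each of Bckdhb, Ppm1k and Oxct1 kept its direction and its call in every fit except under adjustment over all annotated genes (log2 changes of 0.79, 1.09 and -1.02, adjusted p of 0.0642, 0.0794 and 0.0786); the exact permutation test (p = 0.1) could not pass. With 1 library left out they ranged from 0.69 to 0.92, 0.96 to 1.31 and -1.21 to -0.86. Ppm1k had no value with a mean of at least 5 FPKM. The other 45 named genes gave 715 values under these alternatives: 631 kept direction and call, 84 lost the call and 0 reversed; the cause was not tested.

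Over all protein-coding genes 557 genes were higher and 495 lower, and over all annotated genes 172 and 192, by construction fewer; with median-ratio scaling 787 were lower. Among branched-chain genes from uptake to succinyl-CoA, 3 rises passed over protein-coding and 1 over all annotated genes; falls numbered 0 there, over protein-coding genes and with median-ratio scaling, and 2 with quantile normalization. Leaving out 1 library gave 2 to 4 falls, 2 of them without fasted replicate 2. For transport the rises were 0 under both stricter adjustments. For the shared steps there was 1 rise with a mean of at least 5 FPKM and 0 over all annotated genes; its fall was 0 under both scalings and both adjustments. Propionyl-CoA falls were 0 with median-ratio scaling and both adjustments, and 1 to 3 with 1 library left out. Ketone body falls were 1 over protein-coding and 0 over all annotated genes. For pyruvate dehydrogenase genes 1 rise passed under either adjustment; falls were 3 under either scaling, and 1 and 0 under the adjustments. Rises of other PP2C genes were 2 and 0, those of regulators 1 and 0 (0 with a mean of at least 5 FPKM), and those of other amino acid enzymes 1 over all annotated genes. Falls of the last were 1 under both scalings and both adjustments, and 1 to 2 with 1 library left out.

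No paired analysis was possible because the labels give no shared replicate numbers. With 3 mice per group and unknown depth, counting error cannot be given.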

Other observations

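Listed genes of other amino acid metabolism, among them the glutamine synthetase gene Glul, moved in both directions. Gpt had the largest change. Of 30 genes listed, 7 were held and 6 tested, with 4 higher and 2 lower, against backgrounds of 41.1% and 49.4%. The median log2 change was 1.11, beside -0.34 over all genes tested. Gpt, the cytosolic alanine aminotransferase, went from 90.4, 154 and 85.4 FPKM in fed to 11.4, 10 and 14.1 in fasted libraries, a log2 change of -3.07 ± 0.24 (limma adjusted p = 0.00034, and 0.00629 over all annotated genes). Aldh7a1, of lysine breakdown, changed by -0.43 ± 0.13, but did not pass with median-ratio scaling, quantile normalization or when fed replicate 3 or fasted replicate 1 was left out (limma adjusted p up to 0.0616 over the libraries left out).

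Cbs, which opens the transsulfuration of homocysteine, was at 3.03, 3.48 and 4.10 FPKM in fed and 17.7, 35.7 and 13.6 in fasted libraries (2.25 ± 0.32, limma adjusted p = 0.001665). Its longest transcript has stretches nearly identical to other transcripts, the longest of 422 bases (6.8%), and their part in its value was not tested. Kyat3, a kynurenine aminotransferase, changed by 1.44 ± 0.24, Hpd, of tyrosine breakdown, by 1.58 ± 0.37 and the glutamine synthetase gene Glul by 0.78 ± 0.15. Hgd, the step after Hpd, was listed at 0 in fed replicates 2 and 3 and at 0.26 to 1.21 FPKM in fasted libraries, below the filter. Fasted replicate 2 was the highest library for Cbs, Kyat3, Hpd, Hgd and Glul. Glul has processed pseudogenes with up to 96.8% identity, so its value is uncertain. As 90.5% of all tested genes passed, these calls say little about the list.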
